A study of Rattus norvegicus with 25 samples.

Results

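A set of 7 rat genes of the antioxidant defence and of the NRF2 response was followed through intestine after Roux-en-Y gastric bypass: Nfe2l2 (ENSRNOG00000001548), Hmox1 (ENSRNOG00000014117), Nqo1 (ENSRNOG00000012772), Gclc (ENSRNOG00000006302), Cat (ENSRNOG00000008364), Sod1 (ENSRNOG00000002115) and Sod2 (ENSRNOG00000019048). They were chosen by name from what is known of the pathway, and make up 7 of the 32883 Ensembl gene IDs in the count table. Their symbols come with the list, since the files do not pair IDs with names. Roux-en-Y gastric bypass (RYGB) leads food from a small gastric pouch into a raised stretch of jejunum, the alimentary limb, which joins the bile-carrying limb to form the common limb.

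Total RNA was sequenced from 25 libraries in 7 groups. In the first cohort, whose strain and age the labels leave out, 3 alimentary limbs after RYGB (RYGB_AL) stood beside 3 jejuna after sham surgery (Sham_JEJU), and 3 common limbs after RYGB (RYGB_CL) beside 3 ilea after sham surgery (Sham_IL). The OLE cohort came from OLETF rats, an obese and diabetic rat strain: 4 samples of intestinal sections that the submitters call glucotonic (Glucotonic_OLE) and 4 of sections they call non-glucotonic (Nonglucotonic_OLE), all after RYGB, and 3 of distal intestine after sham surgery (Sham_OLE). Samples are named here by the numbers in their titles. Whole pieces of intestine hold many cell types, and the tissue labels could not be checked against marker genes because the IDs carry no names. In such bulk samples, fewer cells of a type and less RNA per cell cannot be told apart.

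NRF2, the product of Nfe2l2, is a transcription factor that KEAP1 holds at a low level and marks for degradation. Oxidants and electrophiles disable KEAP1, and NRF2 then binds antioxidant response elements (AREs) as a partner of small MAF proteins, so its activity is set largely at the protein level. Its classical targets include heme oxygenase 1 (Hmox1), the quinone reductase NQO1 (Nqo1) and the catalytic subunit of glutamate-cysteine ligase (Gclc), the enzyme that limits glutathione synthesis. Hmox1 is also repressed by the heme sensor BACH1, and is a known product of macrophages that take up heme. Superoxide is turned into hydrogen peroxide by SOD1 in the cytosol and by SOD2 in mitochondria, and catalase (Cat) breaks the peroxide down in peroxisomes; Sod2 is a well-known target of NF-kB in inflammation.

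The promoters of Sod2, Sod1 and Nqo1 are shown because Sod2 passed the test in the alimentary limb and Sod1 did not, and because Nqo1 is a classical NRF2 target. Each is the 250 bases before the annotated start, 5′ to 3′ on the gene's strand, from RefSeq on build GRCr8: Sod2 at chr1:50050169-50050418 (minus strand), Sod1 at chr11:42942573-42942822 (plus strand) and Nqo1 at chr19:52220268-52220517 (minus strand). Capitals mark a match to the ARE core.
Sod2: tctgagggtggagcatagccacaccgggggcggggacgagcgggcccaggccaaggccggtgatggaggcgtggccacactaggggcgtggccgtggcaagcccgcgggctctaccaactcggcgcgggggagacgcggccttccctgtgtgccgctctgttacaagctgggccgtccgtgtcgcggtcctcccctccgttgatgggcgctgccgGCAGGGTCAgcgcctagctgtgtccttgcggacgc
Sod1: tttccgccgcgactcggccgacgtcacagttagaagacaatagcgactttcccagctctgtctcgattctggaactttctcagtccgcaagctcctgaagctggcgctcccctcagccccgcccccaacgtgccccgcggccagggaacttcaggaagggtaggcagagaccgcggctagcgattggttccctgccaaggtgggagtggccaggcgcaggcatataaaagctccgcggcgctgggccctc
Nqo1: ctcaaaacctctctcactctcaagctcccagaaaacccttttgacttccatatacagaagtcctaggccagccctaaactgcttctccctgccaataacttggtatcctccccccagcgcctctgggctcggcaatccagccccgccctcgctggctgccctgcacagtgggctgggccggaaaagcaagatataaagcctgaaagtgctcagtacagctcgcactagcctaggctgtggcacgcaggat
The motifs were searched on both strands of the 6 windows that matched a member by symbol (all but Hmox1): the ARE core TGACNNNGC and the AP-1 site TGANTCA, and overlaps between them were not treated apart. The ARE core was found once, in Sod2, on the opposite strand at 35 to 27 bases before the start, where the gene's strand reads GCAGGGTCA. Among all 33469 rat promoter windows of that length, 10.1% held the ARE core. No AP-1 site was found in the 6 windows, against 6.34% of all windows. A match is a description of letters, and a window without one says nothing of sites farther away.

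Library totals were 23.7 M to 49.3 M (mega) counts in the first cohort and 18.1 M to 25.6 M in the OLE cohort. In the OLE libraries the 2 most abundant IDs held 44.6% to 65.9% of the counts, which left 8.48 M to 12.8 M for all other IDs. All 7 genes passed the low-count filter in both cohorts. Levels are given in CPM, the counts brought to a common library size with TMM within each cohort. They serve to compare samples for 1 gene, not genes with each other, since gene length is not taken into account.

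The alimentary limb differed from the sham jejunum in 2 of the 7 genes: Hmox1 rose about 5-fold and Sod2 about 2-fold, while Nfe2l2, Nqo1, Gclc, Cat and Sod1 did not pass the test. The background for these 2 rises was 4.45% of the 16146 IDs tested that were called higher, and 1237 IDs were called in either direction. Calls were made at an adjusted p under 0.05 in edgeR's quasi-likelihood test with Benjamini-Hochberg adjustment. The groups did not overlap in 3 of the 7 genes, against 26.6% of all IDs tested. The median log2 change was 0.0082 over the 7 genes and -0.0086 over all IDs.

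Hmox1, whose enzyme degrades heme to biliverdin, iron and carbon monoxide, had 144.2, 158.8 and 134.2 CPM in the RYGB_AL samples, against 51.7, 17.1 and 17.0 CPM in the Sham_JEJU samples. Every alimentary limb lay above every sham jejunum, and the sham sample 8-15 stood above the other two. The mean was 145.7 ± 12.4 CPM in RYGB_AL and 28.6 ± 19.98 CPM in Sham_JEJU (SD, n = 3 each). The log2 change was 2.35 (SE 0.39, 95% interval 1.49 to 3.20, adjusted p = 0.00472 by edgeR), a 5.09-fold difference. Without Sham_JEJU 8-15 the log2 change was 3.09 (adjusted p = 6.8e-04 by edgeR).

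Sod2, the mitochondrial superoxide dismutase, had 145.2, 275.0 and 175.4 CPM in RYGB_AL, against 109.0, 64.7 and 108.1 CPM in Sham_JEJU. The groups did not overlap, and the alimentary limb 2-3 was the highest. The log2 change was 1.08 (SE 0.26, 95% interval 0.51 to 1.65, adjusted p = 0.0277 by edgeR), or 2.11-fold. This call was lost, with edgeR's adjusted p at 0.139, without RYGB_AL 2-3 (log2 change 0.74), at 0.0639 without RYGB_AL 15-29, at 0.0981 without Sham_JEJU 14-28 and at 0.0659 when only these 2 groups entered the fit.

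The cytosolic partner Sod1 had 108.8, 166.0 and 132.1 CPM in RYGB_AL, against 122.4, 109.4 and 172.8 CPM in Sham_JEJU. These values overlapped throughout, with a log2 change of 0.0082 (95% interval -0.47 to 0.48, adjusted p = 0.988 by edgeR). Within a library, the ratio of Sod2 counts to Sod1 counts was 1.33, 1.66 and 1.33 in RYGB_AL, against 0.891, 0.592 and 0.626 in Sham_JEJU. The ratio does not depend on library scaling, was picked after the values were seen and was given no test.

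Catalase did not pass the test, although every alimentary limb lay below every sham jejunum, as held for 13.1% of all IDs. Cat had 174.9, 126.9 and 142.0 CPM in RYGB_AL, against 195.7, 265.3 and 236.1 CPM in Sham_JEJU. Its log2 change was -0.65 (SE 0.30, 95% interval -1.31 to 0.0059, adjusted p = 0.230 by edgeR).

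Nfe2l2 itself averaged 199.6 ± 13.04 CPM in RYGB_AL and 199.8 ± 39.9 CPM in Sham_JEJU (SD, n = 3 each). The 95% interval of its log2 change ran from -0.38 to 0.38, so a change of the size seen in Hmox1 lies outside it. Neither Nqo1 nor Gclc passed the test beside Hmox1. Nqo1 had 13.8, 20.04 and 18.2 CPM in RYGB_AL and 20.5, 10.2 and 14.2 CPM in Sham_JEJU, with a log2 change of 0.21 (95% interval -0.92 to 1.34, adjusted p = 0.856 by edgeR). Gclc averaged 165.5 ± 43.2 CPM in RYGB_AL and 181.5 ± 29.1 CPM in Sham_JEJU (SD, n = 3 each), with a log2 change of -0.13 (95% interval -0.71 to 0.44).

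**Figure D1:**
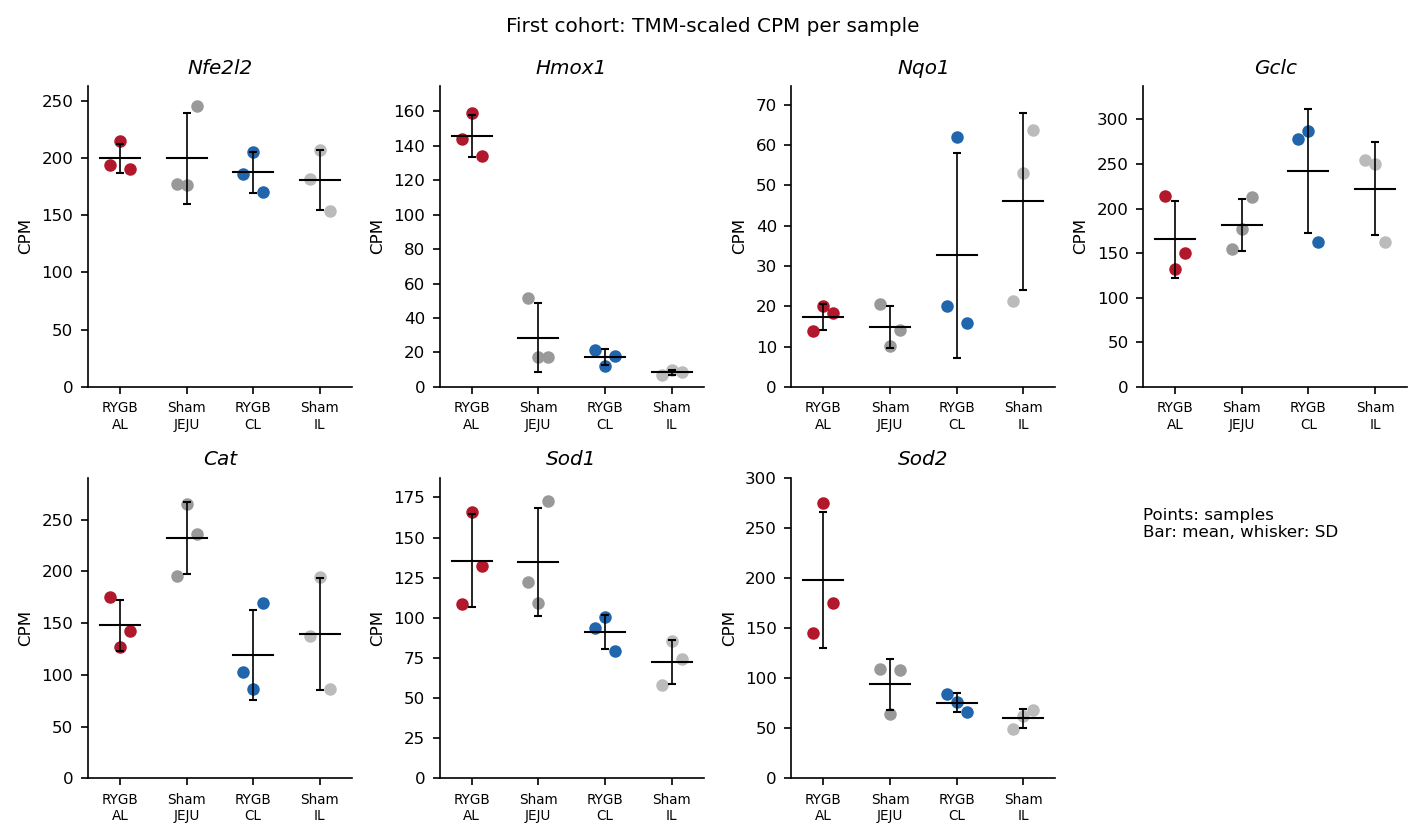
TMM-scaled CPM of the 7 genes in each sample of the first cohort (points), with the mean and SD of each group of 3 (bar and whisker). Hmox1 lies at 134.2 to 158.8 CPM in RYGB_AL and at 51.7 CPM or less in each other sample, and Nfe2l2 overlaps between all 4 groups.

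**Figure D2:**
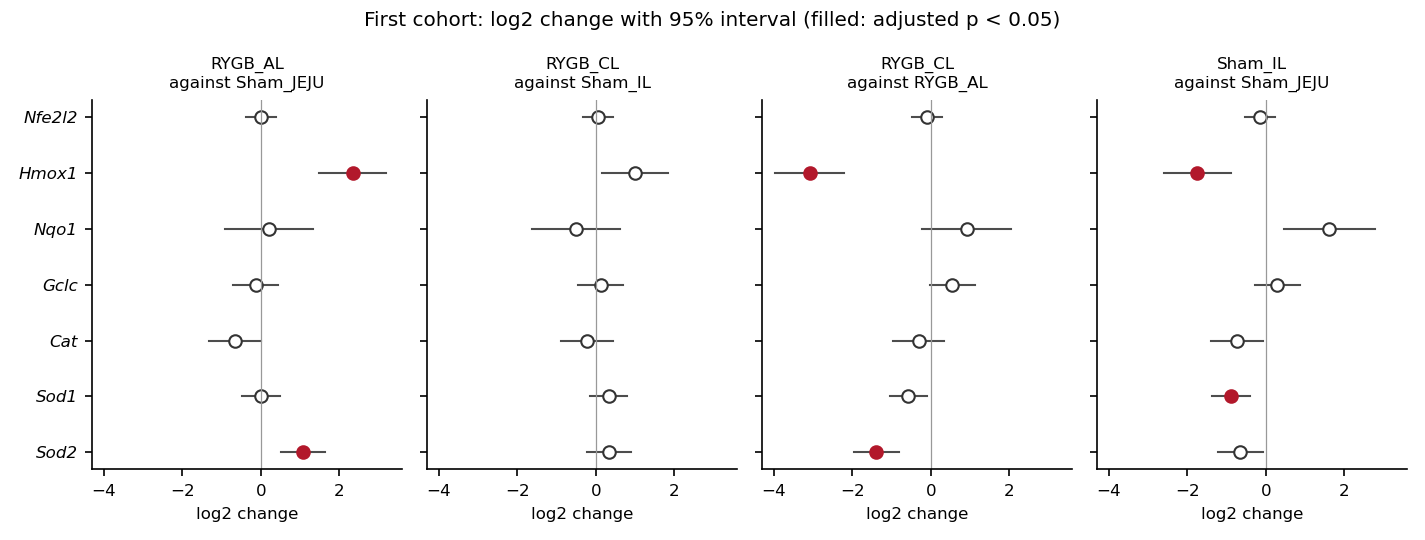
Log2 change with its 95% interval for each gene in 4 comparisons of the first cohort, filled where edgeR's adjusted p was under 0.05. Filled points are Hmox1 and Sod2 for RYGB_AL against Sham_JEJU and for RYGB_CL against RYGB_AL, and Hmox1 and Sod1 for Sham_IL against Sham_JEJU.

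Farther down, the common limb differed from the sham ileum in none of the 7 genes after adjustment. The groups did not overlap in 1 of the 7 genes, Hmox1, against 16.1% of all IDs. No ID at all passed in this comparison (0% of 16146 by edgeR). At an unadjusted p under 0.05, 1268 IDs and 1 of the 7 genes passed, and DESeq2 called 93 IDs, none of the 7 among them. The median log2 change was 0.13 over the 7 genes and 0.046 over all IDs.

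Hmox1 had 21.1, 12.2 and 18.1 CPM in RYGB_CL, against 7.1, 10.0 and 8.4 CPM in Sham_IL. Each common limb lay above each sham ileum, in counts of 482 to 676 in RYGB_CL and 191 to 298 in Sham_IL. The log2 change was 1.01 (SE 0.39, 95% interval 0.17 to 1.85, adjusted p = 0.572 by edgeR). The surgery difference of Hmox1 in the alimentary limb minus that in the common limb was 1.34 on the log2 scale (SE 0.54, 95% interval 0.17 to 2.51, adjusted p = 0.318 by edgeR), so a difference between limbs was not called. None of the 7 genes passed that interaction test by edgeR or DESeq2, against a background of 0.607% of IDs by edgeR, and 2026 IDs and 1 of the 7 had an unadjusted p under 0.05. Without Sham_JEJU 8-15 the Hmox1 interaction was 2.09 with an adjusted p of 0.0307 by edgeR.

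Sod2 had 84.4, 76.7 and 66.0 CPM in RYGB_CL and 49.4, 61.9 and 68.4 CPM in Sham_IL. The groups overlapped at 1 sample each, and the log2 change was 0.34 (95% interval -0.23 to 0.90, adjusted p = 0.743 by edgeR). Nqo1 spread most widely here: 20.1, 61.9 and 15.9 CPM in RYGB_CL and 21.4, 53.1 and 63.6 CPM in Sham_IL. Its coefficient of variation reached 77.9% in RYGB_CL and 47.8% in Sham_IL, and the log2 change of -0.49 had an interval from -1.62 to 0.63. Without RYGB_CL 2-3 it was -1.35 (adjusted p = 0.282 by edgeR). For Nfe2l2, Gclc, Cat and Sod1 the log2 changes lay between -0.23 and 0.33.

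Between the sham segments, Hmox1 and Sod1 were lower in the ileum than in the jejunum, against a background of 6.47% of IDs called lower. In either direction, 1489 of 16146 IDs were called. The groups did not overlap in 4 of the 7 genes, against 35.2% of all IDs. The median log2 change was -0.65 over the 7 genes and 0.029 over all IDs. Hmox1 averaged 8.51 ± 1.47 CPM in Sham_IL and 28.6 ± 19.98 CPM in Sham_JEJU (SD, n = 3 each), a log2 change of -1.75 (SE 0.39, adjusted p = 0.0219 by edgeR). Sod1 had 58.2, 85.4 and 74.4 CPM in Sham_IL, all below the sham jejuna, with a log2 change of -0.89 (SE 0.22, adjusted p = 0.0308 by edgeR).

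Both ileal calls were near the threshold in edgeR: with only the sham groups in the fit, edgeR's adjusted p was 0.0508 for Hmox1 and 0.0512 for Sod1. For Hmox1 it was 0.0973 without Sham_IL 8-15 and 0.0890 without Sham_IL 15-30, and the log2 change was -1.005 without Sham_JEJU 8-15. For Sod1 the adjusted p by edgeR lay between 0.0610 and 0.131 without Sham_JEJU 8-15, Sham_JEJU 15-30, Sham_IL 8-15 or Sham_IL 15-30, each left out alone. The sham jejuna and ilea carry the same 3 numbers, and the fit above treats them as separate samples. With the number as a block neither gene passed, at an adjusted p by edgeR of 0.0679 for Hmox1 and 0.0527 for Sod1. Nqo1 ran the other way, with a log2 change of 1.62 in Sham_IL (SE 0.53, 95% interval 0.47 to 2.77) and no overlap between the groups. Its adjusted p was 0.0746 by edgeR and 0.0121 by DESeq2. DESeq2, which called 2639 IDs here, gave an adjusted p of 2.5e-04 for Hmox1 and 0.00489 for Sod1. Cat, also without overlap, had a log2 change of -0.73 (adjusted p = 0.138 by edgeR), and Sod2 one of -0.65 (adjusted p = 0.128 by edgeR).

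Between the limbs after RYGB, Hmox1 and Sod2 were lower in the common limb, against 5.17% of IDs called lower. In either direction, 1504 of 16146 IDs were called. The limbs did not overlap in 3 of the 7 genes, against 32.0% of all IDs. The median log2 change was -0.31 over the 7 genes and 0.044 over all IDs. Hmox1 averaged 17.1 ± 4.5 CPM in RYGB_CL and 145.7 ± 12.4 CPM in RYGB_AL (SD, n = 3 each), a log2 change of -3.09 (SE 0.41, adjusted p = 0.00198 by edgeR). Sod2 averaged 75.7 ± 9.3 CPM in RYGB_CL and 198.5 ± 67.9 CPM in RYGB_AL (SD, n = 3 each), a log2 change of -1.39 (SE 0.26, adjusted p = 0.0108 by edgeR). These comparisons reuse the limbs of the surgery comparisons above and are not separate evidence for the alimentary limb values. Sod1 had no overlap between the limbs and did not pass, with a log2 change of -0.57 (adjusted p = 0.112 by edgeR).

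The order of the 4 group means differed from gene to gene. Hmox1 and Sod2 ran from RYGB_AL over Sham_JEJU and RYGB_CL to Sham_IL. For Hmox1 the samples of neighbouring groups overlapped only between Sham_JEJU and RYGB_CL, and for Sod2 only the step from RYGB_AL to Sham_JEJU had no overlap. Sod1 kept that order, with RYGB_AL and Sham_JEJU overlapping and a gap between Sham_JEJU and RYGB_CL. Cat was highest in Sham_JEJU, which stood clear of RYGB_AL, and lowest in RYGB_CL. Gclc and Nqo1 had their higher means in the distal groups, RYGB_CL first for Gclc and Sham_IL first for Nqo1, with neighbours overlapping at every step. Nfe2l2 means stayed between 180.7 and 199.8 CPM, with overlap at every step.

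Count ratios within a library set Hmox1 against its regulator and against another NRF2 target, free of library scaling. Gene length is not taken into account, so a ratio compares libraries and not the amounts of its genes. Hmox1 counts per Nfe2l2 count were 0.742, 0.740 and 0.706 in RYGB_AL and 0.292, 0.0967 and 0.0693 in Sham_JEJU. In the distal gut the same ratio was 0.0593 to 0.113 in RYGB_CL and 0.0390 to 0.0546 in Sham_IL, again without overlap. Hmox1 per Nqo1 was 7.37 to 10.4 in RYGB_AL and 1.20 to 2.52 in Sham_JEJU. Nqo1 per Gclc, a ratio of targets to each other, overlapped between RYGB_AL (0.0646 to 0.152) and Sham_JEJU (0.0575 to 0.132). These ratios were picked after the values were seen, so they are descriptions with no test.

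**Figure D3:**
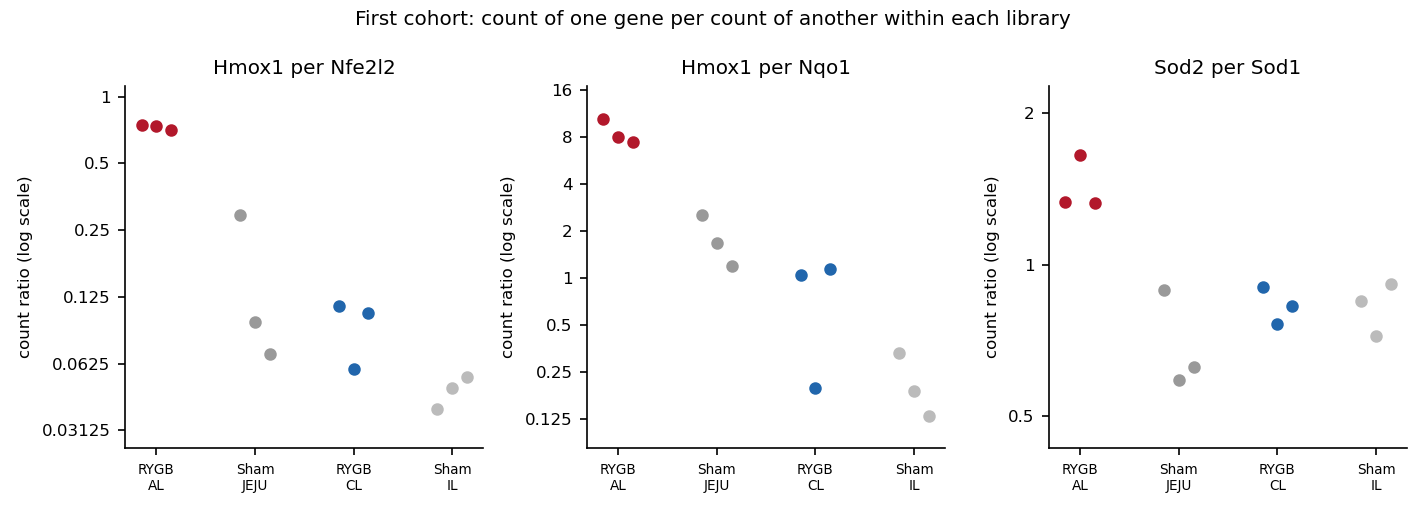
Counts of Hmox1 per Nfe2l2 count, Hmox1 per Nqo1 count and Sod2 per Sod1 count in each first-cohort library, on log axes. The RYGB_AL libraries stand above all others in each panel, at 0.706 to 0.742, 7.37 to 10.4 and 1.33 to 1.66.

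In the OLETF rats, none of the 7 genes passed between Glucotonic_OLE and Sham_OLE, where edgeR called 5 of 14495 IDs, or 0.0345%. At an unadjusted p under 0.05, 2380 IDs and 1 of the 7 genes passed, and DESeq2 called 523 IDs, none of the 7 among them. The median log2 change was 0.55 over the 7 genes, 5 of them positive, and -0.020 over all IDs.

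The groups did not overlap in 1 of the 7 genes, Nqo1, against 12.7% of all IDs. Nqo1 had 22.4, 23.9, 32.7 and 20.2 CPM in Glucotonic_OLE (numbers 13, 16, 18 and 19), against 7.0, 15.7 and 16.7 CPM in Sham_OLE. Every glucotonic section lay above every sham sample, and Sham_OLE 4 was the lowest of all. The log2 change was 0.92 (SE 0.30, 95% interval 0.27 to 1.57, adjusted p = 0.186 by edgeR). In Nonglucotonic_OLE, Nqo1 had 15.8, 17.1, 23.4 and 13.7 CPM, overlapping with Sham_OLE.

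Nfe2l2 had 137.9, 171.4, 197.0 and 67.5 CPM in Glucotonic_OLE, then 120.8, 139.8, 143.2 and 66.5 CPM in Nonglucotonic_OLE, against 96.8, 85.1 and 102.7 CPM in Sham_OLE. Numbers 13, 16 and 18 lay above all sham samples in both kinds of section, and number 19 below them. With all samples the log2 change of Glucotonic_OLE against Sham_OLE was 0.60 (SE 0.34, 95% interval -0.15 to 1.34, adjusted p = 0.397 by edgeR).

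Gclc was split by number in the way Nfe2l2 was. It had 133.3, 163.3, 134.8 and 75.9 CPM in Glucotonic_OLE, then 120.0, 187.4, 141.2 and 74.6 CPM in Nonglucotonic_OLE, against 82.9, 84.1 and 92.1 CPM in Sham_OLE. Number 19 was again the only number below the sham range in both kinds of section. The log2 change was 0.55 for Glucotonic_OLE against Sham_OLE (95% interval -0.10 to 1.21, adjusted p = 0.372 by edgeR) and 0.60 for Nonglucotonic_OLE against Sham_OLE (95% interval -0.060 to 1.26, adjusted p = 0.768 by edgeR).

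Number 19 was the lowest sample for Nfe2l2, Nqo1, Gclc, Cat and Sod1 in both kinds of section, and the highest for Sod2 in both. Its glucotonic library also had the largest share of counts in the 2 most abundant IDs, 65.9%. In its nonglucotonic library these IDs held 40.3% and 15.7%, against 50.1% and 6.54% in Sham_OLE 23. Whether this share bears on the values of number 19 was not tested. Dixon's test flagged number 19 for none of these genes (ratios of 0.544 for Nfe2l2 and 0.657 for Gclc in Glucotonic_OLE, below the critical value for 4 samples), and leaving it out was an alternative chosen with its values known. With both of its sections left out, Nfe2l2 and Gclc passed between Glucotonic_OLE and Sham_OLE, against a background of 6.55% of 14307 IDs called higher. In either direction this fit called 1862 of 14307 IDs, against 5 of 14495 with all samples, so the calls rose across all IDs. Nfe2l2 then averaged 173.8 ± 30.3 CPM in Glucotonic_OLE and 97.8 ± 9.2 CPM in Sham_OLE (SD, n = 3 each), a log2 change of 0.83 (SE 0.16, adjusted p = 0.0139 by edgeR). Gclc averaged 148.2 ± 18.2 CPM in Glucotonic_OLE and 89.1 ± 5.8 CPM in Sham_OLE (SD, n = 3 each), a log2 change of 0.73 (SE 0.17, adjusted p = 0.0254 by edgeR). Nqo1 had a log2 change of 1.00 (SE 0.31) with an adjusted p of 0.0637 by edgeR, and Sod1 one of 0.44 (SE 0.16) with an adjusted p of 0.0905. In Nonglucotonic_OLE against Sham_OLE no gene of the 7 passed without number 19, Gclc coming nearest with a log2 change of 0.79 (adjusted p = 0.0622 by edgeR).

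All Sham_OLE libraries came from sequencing lane 7, per the labels, while the RYGB sections came mostly from lanes 4 to 6, so lane and surgery are largely confounded. Sham_OLE was also distal intestine, while the sample titles give no position along the gut for the RYGB sections. Position therefore cannot be told apart from surgery in these comparisons, and was not tested. Number 13 was also sequenced on lane 7. On lane 7, Nfe2l2 had 134.3 CPM in Glucotonic_OLE 13 and 112.2 CPM in Nonglucotonic_OLE 13, against 96.0, 86.0 and 101.9 CPM in Sham_OLE. Gclc had 115.5 CPM and 111.1 CPM in these sections, against 82.3, 85.1 and 91.4 CPM in Sham_OLE. Within that lane both genes were higher in number 13, without a replicate. The lane 4 libraries of number 13 read higher than its lane 7 libraries: Nfe2l2 had 148.9 CPM on lane 4 in Glucotonic_OLE and 137.1 CPM in Nonglucotonic_OLE, and Gclc 162.3 CPM and 136.5 CPM. Lane could be set apart from surgery only through number 13, the only RYGB number on lane 7. The fits that follow count the libraries of that number as separate samples. They do not settle the part of the lane in the differences from Sham_OLE. With number 13's libraries kept apart as separate samples, the log2 change for Glucotonic_OLE against Sham_OLE was 0.62 for Nfe2l2, 0.61 for Gclc and 0.91 for Nqo1. With lane 7 as a covariate in addition, it was 0.51 for Nfe2l2, 0.40 for Gclc and 0.78 for Nqo1, and none passed in either fit.

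Hmox1 in the OLE cohort was low and uneven. It had 5.7, 10.5, 11.7 and 15.3 CPM in Glucotonic_OLE, then 4.9, 6.6, 9.2 and 8.3 CPM in Nonglucotonic_OLE, against 12.4, 3.8 and 2.6 CPM in Sham_OLE. Sham_OLE 4 lay above all but 1 RYGB section, and the other sham samples below all. The log2 change for Glucotonic_OLE against Sham_OLE was 0.77 (95% interval -0.31 to 1.86, adjusted p = 0.442 by edgeR), 1.72 without Sham_OLE 4, and -0.16 with number 13's libraries kept apart and lane 7 as a covariate. Hmox1 was therefore not distinguishable between these groups at this spread. Sod2, the other gene that rose in the alimentary limb, had 30.6 to 38.7 CPM in Glucotonic_OLE and 31.5 to 39.4 CPM in Nonglucotonic_OLE, against 31.2 to 43.9 CPM in Sham_OLE. Its log2 change for Glucotonic_OLE against Sham_OLE had an interval from -0.44 to 0.20, which leaves out a 2-fold rise.

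**Figure D4:**
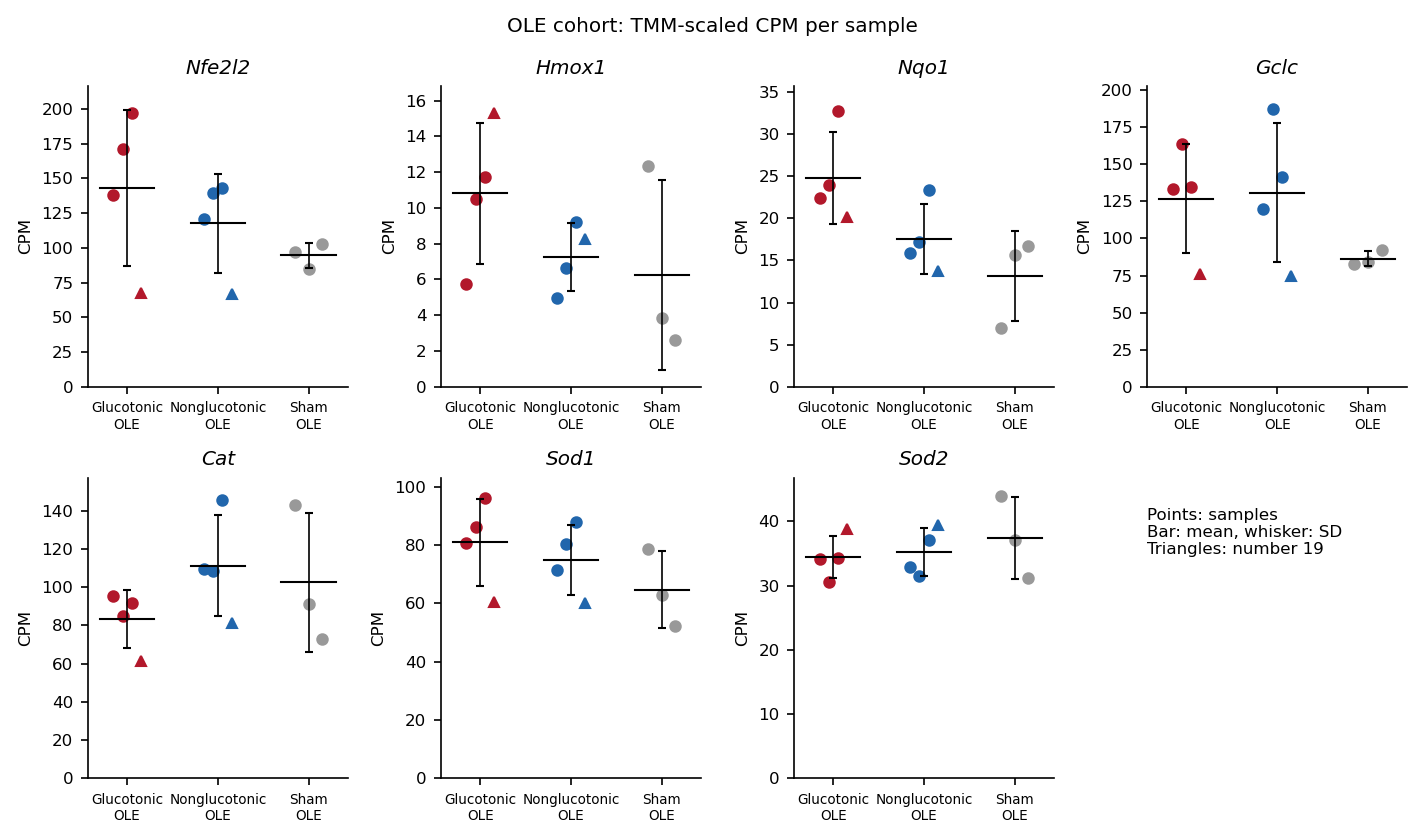
TMM-scaled CPM of the 7 genes in each OLE sample (points), with the mean and SD of each group of 4, 4 and 3 samples (bar and whisker) and triangles for number 19. Nfe2l2 and Gclc lie above the sham range in numbers 13, 16 and 18 and below it in number 19.

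**Figure D5:**
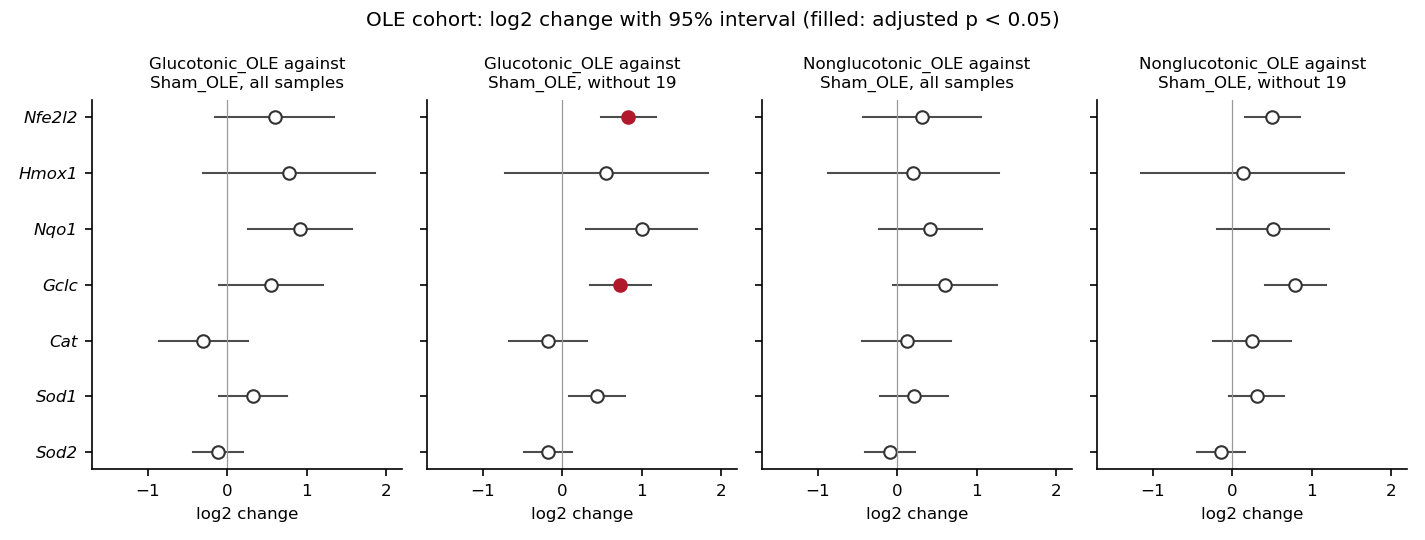
Log2 change with its 95% interval for each gene in both kinds of OLETF section against Sham_OLE, with all samples and without number 19, filled where edgeR's adjusted p was under 0.05. The filled points are Nfe2l2 (0.83) and Gclc (0.73) in Glucotonic_OLE without number 19.

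For Nonglucotonic_OLE against Sham_OLE, none of the 7 genes and no other ID passed (0% of 14495 by edgeR, with 936 IDs and none of the 7 at an unadjusted p under 0.05). DESeq2 called 27 IDs here, none of the 7 among them. The median log2 change was 0.21 over the 7 genes and -0.021 over all IDs. Both comparisons with sham use the same 3 sham samples. Cat had 95.3, 84.7, 91.8 and 61.5 CPM in Glucotonic_OLE and 109.6, 108.7, 145.8 and 81.2 CPM in Nonglucotonic_OLE, while Sham_OLE spread from 73.0 to 143.3 CPM. Sod1 had 60.7 to 96.1 CPM in Glucotonic_OLE and 60.1 to 88.1 CPM in Nonglucotonic_OLE, against 52.4 to 78.8 CPM in Sham_OLE.

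Between the kinds of section, none of the 7 genes and 0% of IDs passed by edgeR, with 388 IDs and none of the 7 at an unadjusted p under 0.05, while DESeq2 called 3 IDs and none of the 7. The sign was the same in all 4 numbers for 5 of the 7 genes, against 21.5% of all IDs, in some by ratios near 1. Nqo1 was higher in the glucotonic section of all 4 numbers, by a ratio of 1.39 to 1.47, and Cat lower in all 4, by a ratio of 0.630 to 0.870. Nfe2l2 (1.01 to 1.38), Hmox1 (1.16 to 1.85) and Sod1 (1.01 to 1.13) were also higher in the glucotonic section of all 4 numbers, Gclc in 2 of 4 and Sod2 in 1 of 4. With the number as a block, which raised the IDs called to 25 of 14004, Nqo1 had a log2 change of 0.50 (SE 0.08, adjusted p = 0.0501 by edgeR) and Cat one of -0.41 (SE 0.09, adjusted p = 0.125 by edgeR). Neither passed.

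Across all 7 group means, each centred within its cohort on the log2 CPM scale, the genes lay at different distances from each other. Among 9252 IDs with at least 5 CPM on average in both cohorts, the nearest other gene of the 7 ranked between place 157 and place 4051. Among the 7, Nfe2l2 and Gclc were nearest to each other, with a root mean square difference of 0.22. Many other IDs lay nearer: Gclc held place 4051 from Nfe2l2, and Nfe2l2 place 1231 from Gclc. The nearest ID outside the 7 was at 0.027 for Nfe2l2 and 0.062 for Gclc. Hmox1 was nearest to Sod2 at 0.73, and of all IDs nearest to ENSRNOG00000020465 at 0.32, an ID that the files do not name. Hmox1 was also the gene farthest from Nfe2l2, Nqo1, Gclc, Cat and Sod1. Its group means spanned 4.10 on the log2 scale in the first cohort, against 0.15 for Nfe2l2. These distances are over 7 points that share their cohorts and libraries, and describe likeness only.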

How the data were processed

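Stranded, rRNA-depleted libraries were made from column-purified total RNA, per the labels' protocols. The submitters' processing notes name FastQC, STAR and the rat build rn6. How reads were assigned to genes (program, annotation, strand, reads with several matches) is not given in the sources used here, so each ID stands for what was counted on it. The deposited values are raw counts per Ensembl gene ID, whole numbers that the authors did not scale. All 25 count columns were mapped to samples, and 0 were left unused. The cell line comparison of the design text was not analysed here.

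Separate edgeR fits (version 4.0.16, in R 4.3.3) were made for the 2 cohorts. IDs were filtered with filterByExpr (at least 10 counts in enough libraries, 15 in total) and libraries scaled with TMM. A robust quasi-likelihood fit estimated a spread for each ID, shared by all groups of its cohort. Benjamini-Hochberg adjustment ran over all IDs tested with a threshold of 0.05. In the first cohort 16146 IDs were tested (biological coefficient of variation 0.314), and 14495 in the OLE cohort (0.279). Each SE was obtained as log2 change over square root of F, and 95% intervals use edgeR's degrees of freedom. The procedure was tested on simulated data. The 2 libraries of number 13 in each kind of OLE section were summed, which gave 4, 4 and 3 samples. Nothing in the labels says that first-cohort samples came from separate animals, so the p-values reflect only the spread among these samples, which may be technical.

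The fits behind the reported OLE values hold no block for the number. The numbers met the criterion for pairing (every r above 0.1) from the data, not from the labels, so the blocked fit is given where the 2 kinds of section are compared. Residuals around group means (log2 CPM, prior count 2) correlated between sections of a number at r = 0.467 (13), 0.430 (16), 0.341 (18) and 0.811 (19). The highest r with another number was 0.412 (13), 0.221 (16), 0.444 (18) and -0.275 (19). Number 18 thus correlated more with another number than with its own. Numbers 13, 16 and 18 all exceeded 0.1 with another number, so meeting the criterion does not settle pairing by number.

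All 7 genes are named in every comparison, called or not. The genes, lists, tests and alternatives were chosen with earlier results of these data known. Further pathway genes and cell type markers were listed but could not be applied, since 0 lines of the reference table name any of these IDs. Likeness is the root mean square difference of 7 group means of log2 CPM centred within the cohort. Alternatives were DESeq2's Wald test (version 1.42.0), DESeq2 size factors within edgeR, no low-count filter, the 2 most abundant OLE IDs left out, each replicate left out, fits of only the compared groups, number 13's libraries kept apart, lane 7 as a covariate, both sections of number 19 left out, and the label number as a block.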

Additional observations from a re-analysis of the deposited data

How the results depend on the processing

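Of 770 alternative values for the 56 combinations of gene and comparison, 718 kept their direction and their side of the threshold. Most of these combinations were not called to begin with. Among the called ones, Sod2 in RYGB_AL against Sham_JEJU kept its call in 7 of 11 alternatives. In Sham_IL against Sham_JEJU, Hmox1 kept it in 8 of 12 and Sod1 in 6 of 12. The calls of Hmox1 in RYGB_AL against Sham_JEJU, and of Hmox1 and Sod2 between the limbs, held in every alternative. For RYGB_AL against Sham_JEJU the number of the 7 genes called was 2, and 1 with only the groups compared; leaving out 1 sample at a time gave 1 to 2. Sham_IL against Sham_JEJU gave 2, 0 with only the groups compared, 0 with the replicate block, and 0 to 2 with 1 sample left out. The difference between limbs gave 0, and 0 to 1 with 1 sample left out. Glucotonic_OLE against Sham_OLE gave 0, and 2 with both sections of number 19 left out. RYGB_CL against RYGB_AL gave 2 in all 12 alternatives, and the other comparisons gave 0 in every alternative. DESeq2 called 3 of the 7 for Sham_IL against Sham_JEJU, Nqo1 being the added gene. Over all IDs in either direction DESeq2 called more than edgeR: 2029 against 1237 for RYGB_AL against Sham_JEJU, 2639 against 1489 for Sham_IL against Sham_JEJU, 2771 against 1504 for RYGB_CL against RYGB_AL, 568 against 98 for the difference between limbs and 523 against 5 for Glucotonic_OLE against Sham_OLE.

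With the replicate block, the Sham_IL against Sham_JEJU log2 change was -1.53 for Hmox1 (adjusted p = 0.0679 by edgeR) and -0.88 for Sod1 (adjusted p = 0.0527 by edgeR). The first-cohort numbers recur in both limbs and in both sham segments, but did not meet the criterion for pairing (every r above 0.1). Samples sharing a number correlated in their deviations at r = -0.048 (1-1), 0.275 (2-3) and 0.166 (15-29) between limbs. Between sham segments r was 0.030 (8-15), 0.064 (14-28) and 0.087 (15-30). Not every sample correlated best with its own number. With 3 samples per group, these values do not settle whether the samples are paired. The block changed no other call on the 7 genes.

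Changes of sign occurred in values that never passed the threshold. With 1 sample left out at a time, log2 changes ran from -0.089 to 0.16 for Nfe2l2, -0.0058 to 0.51 for Nqo1 and -0.19 to 0.21 for Sod1 in RYGB_AL against Sham_JEJU. For RYGB_CL against Sham_IL they ran from -0.051 to 0.16 for Nfe2l2, -0.056 to 0.35 for Gclc and -0.56 to 0.093 for Cat. Nfe2l2 ran from -0.26 to 0.020 for Sham_IL against Sham_JEJU and from -0.16 to 0.11 for the difference between limbs. Against Sham_OLE, Cat ran from -0.48 to 0.0062 in Glucotonic_OLE and from -0.066 to 0.42 in Nonglucotonic_OLE, where Hmox1 ran from -0.15 to 1.15 and Sod2 from -0.20 to 0.031. Between the kinds of section, Gclc ran from -0.24 to 0.18 and Sod2 from -0.091 to 0.027.

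Sod1 in RYGB_AL against Sham_JEJU was at -0.0021 with DESeq2, at -0.0020 with its size factors in edgeR and at -0.0030 with only the groups compared. With number 13's libraries kept apart, Gclc between the kinds of section was at 0.0028, and at 0.0045 with lane 7 as a covariate as well. With that covariate, Hmox1 against Sham_OLE was at -0.16 in Glucotonic_OLE and -0.68 in Nonglucotonic_OLE, and Sod2 at 0.0031 in Nonglucotonic_OLE. The cause of these changes was not tested. Hmox1 had 55 to 297 counts per sample in Sham_OLE, which includes the lowest count of the 7 genes in any sample.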
